A study of Rattus norvegicus with 12 samples.

Results

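The 3 vinclozolin generations of a rat line were compared with one another in the testis at embryonic day 16. All 6 arrays titled as F1, F2 or F3 vinclozolin were taken, of 12 arrays in the series, with 2 arrays in each generation. In the vinclozolin line, founder females were dosed intraperitoneally at 100 mg/kg/day between days 8 and 14 of their pregnancy. The F1 embryos were thus exposed in the womb, the F2 embryos descend from germ cells that were present in those F1 embryos, and the F3 embryos came 1 generation later. Neither F2 nor F3 embryos had a dosed dam. The other 6 arrays, 2 in each generation, hold the control line, whose founder females were given the vehicle, sesame oil with DMSO, on the same days. For the F2 and F3 vinclozolin samples the breeding text, like that of the controls, speaks of parents taken from different control lines, so the group names here follow the sample titles. The strain was not given. About 10 testes were pooled for each RNA, and no label told if the replicate pools were of separate litters, so p-values measured the spread between RNA pools.

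Vinclozolin is a fungicide whose metabolites bind the androgen receptor and block it. In the fetal rat testis at this age, Sertoli cells enclose the germ cells in cords and make anti-Müllerian hormone, while the fetal Leydig cells between the cords make androgen. Germ cells of the male fetus are at this stage regaining DNA methylation, which was erased earlier in their development. The arrays read RNA by probe sets that mostly lie near the 3' end of a transcript, and RNA that is broken or copied short loses signal at probe sets far from that end.

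Genes of the male fetal testis read bright on every vinclozolin array. Whether RNA of other tissue was also present was not tested. Amh, anti-Müllerian hormone, read between 2396.6 and 3417.8 on the vinclozolin arrays, Cyp17a1, an enzyme of androgen synthesis, between 4014.8 and 4697.7, and the Y-linked Eif2s3y between 419.5 and 698.9. The deposited signal had been scaled so that all 12 arrays had a 2% trimmed mean near 125.03, and the median signal of the vinclozolin arrays ran from 40.6 to 42.8. The SD between replicate arrays, pooled over tested probe sets on the log2 scale, was 0.243 in F1, 0.203 in F2 and 0.177 in F3 of the vinclozolin line and between 0.132 and 0.16 in the control line.

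The ratios of the 5' to the 3' probe set of beta-actin and Gapdh, which fall when RNA is shortened, were ordered by generation on the vinclozolin arrays. The beta-actin 5'/3' ratio was 0.192 and 0.149 in F1, 0.246 and 0.219 in F2, and 0.395 and 0.36 in F3. No generation overlapped another, and all 6 values lay below the control arrays, which ran from 0.423 to 0.471. The Gapdh 5'/3' ratio was 0.718 and 0.651 in F1, 0.8 and 0.721 in F2, and 1.02 and 0.97 in F3. Here F3 lay within the control range of 0.959 to 1.02, and F1 and F2 lay below it without overlapping each other. The between-generation difference of either ratio had p = 0.0667 in an exact permutation test of the between-group F. The test ran over the 15 ways to split 6 arrays into 3 pairs and did not test the order of the generations. This p is the smallest the design allows, and was 0.111 after Benjamini-Hochberg adjustment over 5 array measures. Generation and RNA ratio therefore move together in every comparison that follows, and on these arrays they cannot be told apart.

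**Figure D1:**
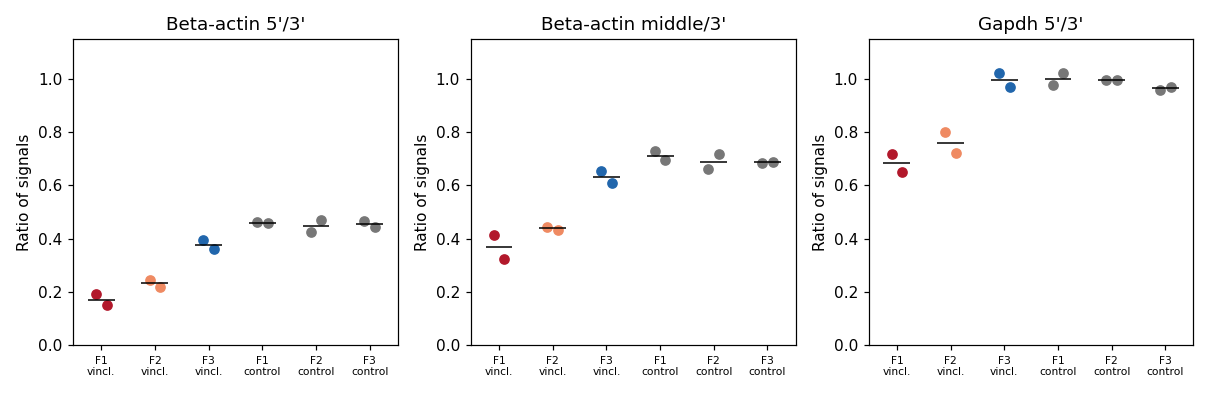
Ratio of signals of the 5' or middle probe set to the 3' probe set of beta-actin and Gapdh (y axis, no unit) on each of the 12 arrays (points), by group (x axis), with a line at each group mean. The beta-actin 5'/3' ratio has means of 0.171 in F1, 0.233 in F2 and 0.378 in F3 vinclozolin, all below the control arrays, and the Gapdh ratio of F3 vinclozolin sits among the controls.

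F1 and F3 of the vinclozolin line differed in the most probe sets, and F1 and F2 in the fewest, an order that turned for the latter when F1 replicate 1 was left out (1469 probe sets called, against 784 between F2 and F3). Differences were tested with limma on log2(signal + 16) over 21729 probe sets, and a probe set was called at a Benjamini-Hochberg adjusted p under 0.05. F3 against F1 gave 1144 calls (5.26% of those tested), of which 763 were higher in F3 (3.51%) and 381 lower (1.75%). Of these, 29 and 15 passed the filter on dim probe sets only through the generation in which they were highest. F3 against F2 gave 117 calls (0.538%), with 93 higher (0.428%) and 24 lower in F3 (0.11%). F2 against F1 gave 8 calls (0.0368%), with 2 higher (0.0092%) and 6 lower in F2 (0.0276%), while 1999 probe sets had an unadjusted p under 0.05. The mean of F2 and F3, the descendants, against F1 gave 427 calls (1.97%), 305 higher (1.4%) and 122 lower (0.561%), and the F test of any difference among the generations gave 610 (2.81%). The smallest adjusted p-values of the F test, by limma, belonged to Scgb1d4 (1.95e-06), Scgb1d2 (1.21e-05), Nedd4 (6.04e-05), Scgb2a1 (0.000233) and Hspa4 (0.000364). These comparisons share arrays, so their counts are not independent.

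Measured the same way, the control line gave 0 calls for F2 against F1, 4 for F3 against F2 and 0 for F3 against F1, with 1332, 1679 and 2132 probe sets at an unadjusted p under 0.05 in limma. The generation difference itself differed between the lines, in a fit of all 12 arrays, for 961 probe sets in F3 against F1 (4.42%), 112 in F3 against F2 (0.515%) and 7 in F2 against F1 (0.0322%). Of the 763 probe sets higher in F3 than in F1, 760 entered that fit and 546 were called there with the same sign, and of the 381 lower ones 373 entered and 226 were called. Over the 763 the median log2 difference of F3 from F1 was 0.87 in the vinclozolin line and -0.04 in the control line, and over the 381 it was -0.72 and 0.03. Both sets were chosen on the vinclozolin difference, which the fit of all 12 arrays contains. Their shared signs and these medians thus follow largely from that choice. That fit also took a common spread for both lines, although replicates spread more in the vinclozolin line.

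With the beta-actin 5'/3' ratio of each array added to the model, limma called 0 probe sets in F2 against F1, F3 against F2, F3 against F1 and the mean of F2 and F3 against F1, with 817, 1245, 911 and 850 at an unadjusted p under 0.05. The F test called 1, the probe set 1397977_at, and 585 of the 1144 kept their sign. This fit leaves 2 residual degrees of freedom. The ratio is nearly fixed by the generation, so little of the generation difference is left to estimate. Single arrays also moved the counts. For F3 against F1, 3004 probe sets were called without F1 replicate 1, 185 without F3 replicate 1 and 374 without F3 replicate 2. For F3 against F2 the counts were 784 and 754 without F1 replicate 1 or 2, 9 without F2 replicate 2, and 22 and 16 without F3 replicate 1 or 2. For F2 against F1 they were 0 without F2 replicate 1 (1604 at an unadjusted p under 0.05 in limma) and 1 without F2 replicate 2.

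The steepest change across the vinclozolin generations was in secretory genes of the ventral prostate. Scgb1d4, Scgb1d2 and Scgb2a1 are secretoglobins that the rat ventral prostate secretes under androgen as subunits of prostatein. They lie near one another on chromosome 1, and their starts are shown because the probe sets of all 3 moved together. The 250 bases before each start come from RefSeq on build GRCr8, at chr1:215755113-215755362 (plus strand), chr1:215656711-215656960 (minus strand) and chr1:215922501-215922750 (plus strand). Capitals mark AGAACA or its reverse complement TGTTCT, the core of the androgen receptor's half-site, and TATAAA or TTTATA, the core of the TATA box, searched on both strands.
Scgb1d4: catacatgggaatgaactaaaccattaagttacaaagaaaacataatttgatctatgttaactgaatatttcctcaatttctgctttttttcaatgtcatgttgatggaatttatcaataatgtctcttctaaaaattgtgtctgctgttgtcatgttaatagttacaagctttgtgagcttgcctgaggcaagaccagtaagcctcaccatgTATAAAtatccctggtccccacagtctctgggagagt
Scgb1d2: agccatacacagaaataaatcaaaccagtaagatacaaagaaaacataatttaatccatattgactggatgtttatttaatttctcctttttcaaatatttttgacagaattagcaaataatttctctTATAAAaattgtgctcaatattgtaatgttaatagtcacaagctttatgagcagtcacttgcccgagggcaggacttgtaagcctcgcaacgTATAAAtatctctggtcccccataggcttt
Scgb2a1: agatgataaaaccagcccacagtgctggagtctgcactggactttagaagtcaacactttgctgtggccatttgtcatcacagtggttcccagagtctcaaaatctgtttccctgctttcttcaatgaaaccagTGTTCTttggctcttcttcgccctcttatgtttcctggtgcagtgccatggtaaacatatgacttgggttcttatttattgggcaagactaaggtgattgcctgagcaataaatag
The half-site letters occur 1 time before Scgb2a1 and 0 times before Scgb1d4 and Scgb1d2, against 17.5% of 33469 promoters of this length that hold them. TATAAA occurs 1 time before Scgb1d4, 2 times before Scgb1d2 and 0 times before Scgb2a1, against 12.9% of all promoters. These matches describe letters, not binding.

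Scgb1d4 (1388123_at) read 13.1 and 14.0 in F1, 20.2 and 22.4 in F2, and 239.1 and 287.7 in F3. Both F3 arrays stood far above the other 4, and the control arrays read at most 9.3. The log2 difference of F3 from F1 was 3.24 ± 0.187 (SE), an adjusted p of 1.5e-06, and that of F3 from F2 was 2.90 (adjusted p = 6.5e-06).

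Scgb1d2 (1370858_at) read 16.3 and 10.2 in F1, 24.2 and 13.2 in F2, and 208 and 248.5 in F3. F1 and F2 overlapped and F3 lay above both, by 3.06 ± 0.216 on the log2 scale over F1 (adjusted p = 7.15e-06). Scgb2a1 (1367554_at) read 25.2 and 9.8 in F1, 10.6 and 26.4 in F2, and 166.6 and 213.5 in F3. Its F3 arrays again stood alone, 2.65 ± 0.265 above F1 (adjusted p = 0.000198).

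Sbp, spermine binding protein, another product of the ventral prostate, read 11.2 and 1.1 in F1, 5.4 and 8.4 in F2, and 82 and 94.3 in F3. It passed the filter on dim probe sets only through its F3 signal, so no test is given. The pseudogene Scgb1d2-ps1 (1373762_a_at), which resembles its parent gene and may share its signal, read 63 and 77.7 in F3 and at most 15.3 on the other vinclozolin arrays. Cyssl1 read 51.4 and 63.7 in F3 against at most 17.9 elsewhere in the line, and both also entered only through F3. Andpro, an androgen-regulated prostate protein, was left out of the test as dim, yet 1367558_x_at read 52 and 59.6 in F3 and at most 6.3 in F1 and F2.

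Other prostate genes did not share this pattern. Pbsn, probasin of the dorsolateral lobe, read at most 10.6 on any vinclozolin array, Msmb at most 6.3 and Acp3, prostatic acid phosphatase, at most 6.9. Of 22 listed prostate secretory and epithelial genes, 18 were on the array and 8 were bright enough to be tested. Of the 8, 4 were called higher in F3 than in F1 (50%, against 1.58% of all genes), Scgb1d4, Scgb1d2, Scgb2a1 and Sbp. Sbp entered the test only through its F3 signal. The list was chosen with earlier results of these data known, so this share is described without a test. The summed signal of the 18 genes on the array ran from 1560 to 2173 in F1, 1758 to 1868 in F2, 2279 to 2426 in F3 and 1290 to 1401 in the controls. The epithelial keratins Krt8 and Krt18 read 355.2 and 454.3, and 173.9 and 179.7, in F3, against 419.2 and 595, and 178.7 and 213.1, in F1. Whether prostate or other tissue was present in a pool was not tested. The calls of Scgb1d4, Scgb1d2 and Scgb2a1 in both F3 comparisons held in each of the 6 fits that left out 1 vinclozolin array.

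**Figure D2:**
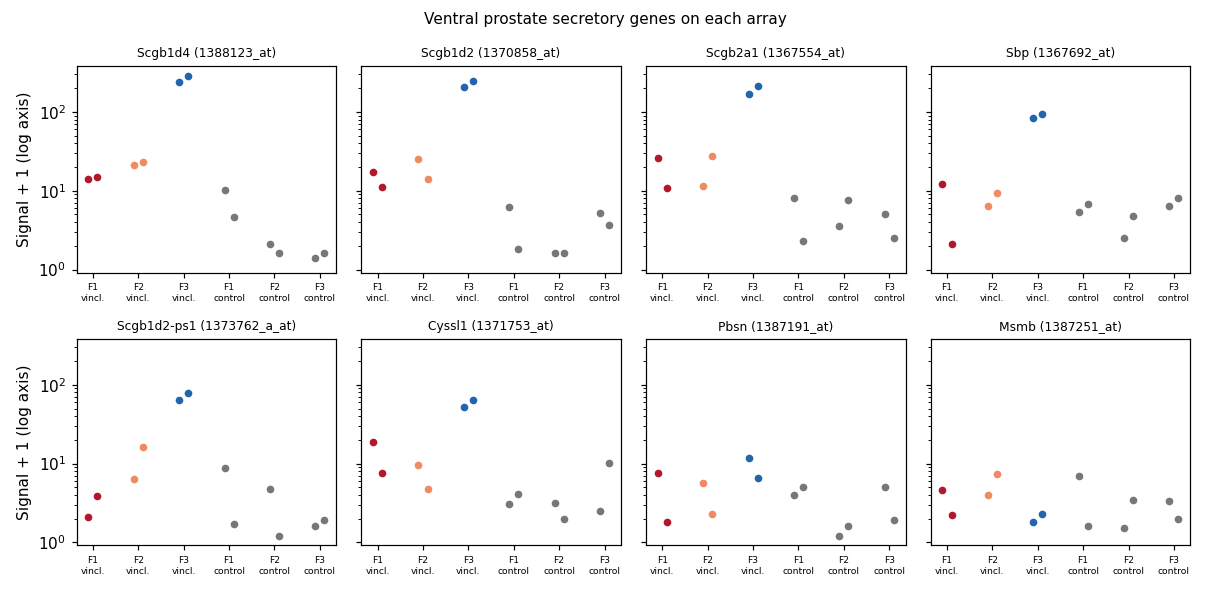
Signal plus 1 on a log axis (y) on each of the 12 arrays, by group (x), for 8 genes of prostate secretion. Both F3 vinclozolin arrays stand above all others for Scgb1d4, Scgb1d2, Scgb2a1, Sbp, Scgb1d2-ps1 and Cyssl1, while Pbsn and Msmb stay at or below 10.6.

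Outside the prostate genes, the largest rises from F1 to F3 were in probe sets that were dim in F1 and bright in the controls. Nedd4, a ubiquitin ligase, read 128.1 and 132.8 in F1, 218.7 and 171.6 in F2, and 628.2 and 518.6 in F3 on 1395157_at. The generations did not overlap, and all 6 arrays lay below the controls, whose lowest value was 1162.4. The log2 difference of F3 from F1 was 2.00 ± 0.157 (adjusted p = 1.7e-05) and that of F3 from F2 was 1.48 (adjusted p = 0.000951). Of the 6 tested probe sets of Nedd4, 4 rose from F1 to F3 by 0.98 to 2.00, but the brightest, 1375119_at, read 3711.7 and 4239.1 in F1 and 3638.6 and 3735.7 in F3 (adjusted p = 0.651).

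Gmps, which makes GMP, read 64.5 and 39.8 in F1, 167.8 and 100 in F2, and 288 and 242 in F3 on 1380373_at. Its F3 arrays reached the control range of 240.7 to 291.7, and the rise over F1 was 2.06 ± 0.224 (adjusted p = 0.000287). The brighter probe set of Gmps, 1377577_at, read 923.6 and 954.2 in F1 and 894.2 and 805.2 in F3, a log2 difference of -0.14 (adjusted p = 0.555).

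Cbfb, the partner of RUNX transcription factors, read 22.4 and 22.5 in F1, 47.7 and 27.8 in F2, and 160.1 and 95 in F3 on 1395821_at, a rise of 1.86 ± 0.243 (adjusted p = 0.000823). Scd2, a fatty acid desaturase, read 69.7 and 26.1 in F1, 112.7 and 83.8 in F2, and 210.2 and 175.1 in F3 on 1386889_at, a rise of 1.79 ± 0.263 (adjusted p = 0.00199). Ddx3x, an RNA helicase, read 63.1 and 46.4 in F1, 114 and 59.5 in F2, and 239.4 and 206.9 in F3 on 1386535_at, a rise of 1.76 ± 0.228 (adjusted p = 0.000806). In all 3 genes F3 lay above F1 and F2 without overlap, and the brightest probe set of the gene differed by at most 0.40 between F3 and F1, with adjusted p-values of 0.126 for Cbfb, 0.186 for Scd2 and 0.885 for Ddx3x. With the beta-actin ratio in the model the estimates of Gmps, Cbfb, Scd2 and Ddx3x turned negative, at -0.61, -0.22, -1.59 and -0.58.

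Genes that fell from F1 to F3 were led by Mbp, myelin basic protein. Mbp read 279.5 and 106.4 in F1, 32 and 34.4 in F2, and 22.7 and 20 in F3 on 1368810_a_at. F1 stood far above the rest, F2 a little above the controls (10.2 to 22.8) and F3 among them, and the fall to F3 was -2.35 ± 0.299 (adjusted p = 0.000749). A second probe set of Mbp, 1383479_at, read 64.4 and 37.2 in F1 and 57.5 and 62.9 in F3 (adjusted p = 0.619).

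Snap25, a protein of synaptic vesicle fusion, was likewise bright in F1 alone. It read 70.6 and 34 in F1, 1.8 and 8.2 in F2, 13.7 and 1.2 in F3, and at most 5.7 in the controls. It passed the filter on dim probe sets only through its F1 signal, so no test is given. Eno2, the neuronal enolase, read 113.6 and 99.3 in F1, 46 and 60.2 in F2, and 34.1 and 46.7 in F3, a fall of -1.13 ± 0.194 (adjusted p = 0.00502). Its F2 and F3 arrays overlapped and lay near the controls, at 38.6 to 53.5, and without F3 replicate 1 the adjusted p was 0.0845. Of 17 tested nerve and Schwann cell markers, 2 were called lower in F3 than in F1 (11.8%, against 1.28% of all genes), Mbp and Snap25, the latter through its F1 signal, and 1, Uchl1, was higher (5.88%, against 1.58%). This list was chosen with earlier results of these data known, so the shares are described without a test. The median over the list was -0.01, and the summed signal of the listed genes was 3093 to 3725 in F1, 3167 to 3395 in F2 and 3257 to 3382 in F3.

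Hspa4, a chaperone of the Hsp70 family, read 432.2 and 352.4 in F1, 133.4 and 173.5 in F2, and 82.4 and 108.8 in F3. Here the controls, at 218.4 to 282.5, lay between F1 and F2, and the fall from F1 to F3 was -1.87 ± 0.177 (adjusted p = 0.000134). Retreg3, a receptor for turnover of the endoplasmic reticulum, read 257.1 and 269.7 in F1, 169.8 and 163.3 in F2, and 81 and 100.8 in F3, a fall of -1.39 ± 0.154 (adjusted p = 0.00029). Mfhas1 read 208.7 and 200.9 in F1, 141 and 177.3 in F2, and 65.9 and 79.5 in F3 on 1393738_s_at (-1.32 ± 0.165, adjusted p = 0.000718), and both other probe sets of Mfhas1 fell as well, by 0.63 and 0.99 on the log2 scale. In these 3 genes the generations were ordered without overlap, starting above the control arrays and ending below them.

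Srsf11, Sox4, Nufip2 and Tiparp completed the 10 largest falls that met the naming rule. Srsf11, a splicing factor, read 518.2 and 916.5 in F1, 557.3 and 758.8 in F2, and 266.1 and 284.7 in F3 on 1382056_at, a fall of -1.28 ± 0.212 (adjusted p = 0.00388), while its brighter probe set differed by 0.16 (adjusted p = 0.535). Sox4, a transcription factor of progenitor cells, fell by 1.26 on 1383989_at (adjusted p = 0.00703), yet 1384000_at rose by 0.73 (adjusted p = 0.0237). Nufip2 fell by 1.25 (adjusted p = 0.00635) and Tiparp, an enzyme that the dioxin receptor induces, by 1.19 (adjusted p = 0.0214), each on 1 of its probe sets. The calls of Sox4, Nufip2 and Tiparp were lost without F3 replicate 1, and that of Tiparp also without F1 replicate 2, at adjusted p-values up to 0.102, 0.0547 and 0.204. With the beta-actin ratio in the model the estimates of Srsf11, Sox4, Nufip2 and Tiparp turned positive, at 1.40, 0.94, 0.73 and 0.48.

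**Figure D3:**
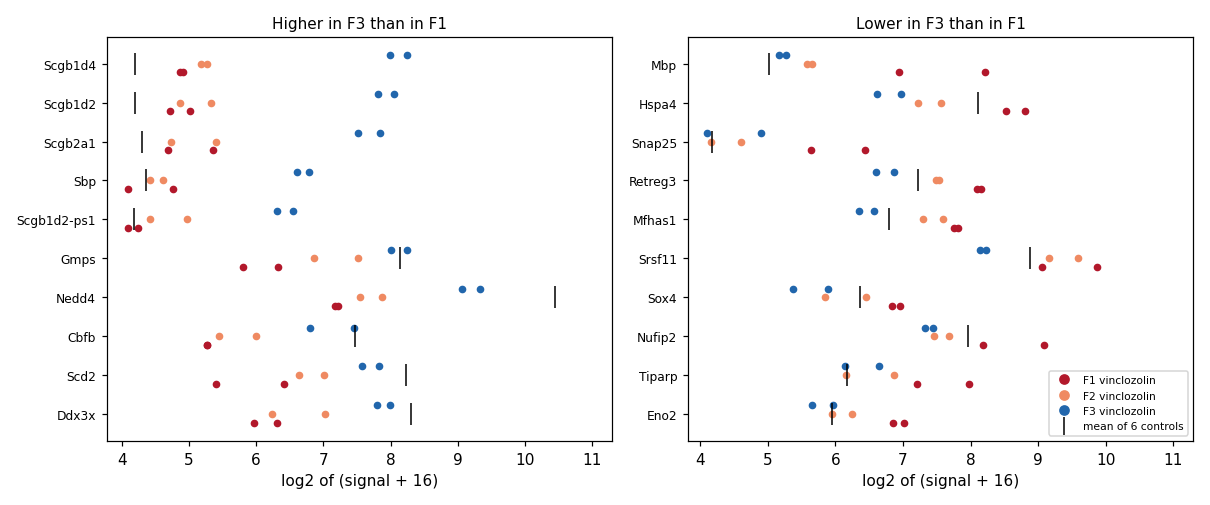
log2 of (signal + 16) (x axis) of the 10 genes with the largest rise and the 10 with the largest fall from F1 to F3 vinclozolin under the naming rule, with a point for each of the 6 vinclozolin arrays and a bar at the mean of the 6 controls. Outside the 5 prostate genes, the risen genes start below the control mean in F1 and move towards it in F3, and each of the 10 fallen genes has an F1 mean above it.

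The same order was seen over all the called probe sets, described here without a test because they were chosen on F1 and F3. A choice of large gaps between F1 and F3 by itself raises the share with F2 between them. The shares over all tested probe sets are thus not a like background. Of the 763 higher in F3 than in F1, F2 had a mean between them in 721 (94.5%, against 42.7% of all tested), and F1 lay below the mean of the controls in 756 (99.1%, against 48%). Their median signal was 76.4 in F1, 106 in F2 and 167 in F3, and 180, 185 and 176 in the F1, F2 and F3 controls. F3 was thus nearer to the controls than F1 was in 715 (93.7%, against 63.5%).

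In the 381 probe sets lower in F3 the median passed the control level. In 280 of them (73.5%, against 63.5% of all tested) F3 was nearer to the controls than F1 was. The median signal of the 381 was 223 in F1, 176 in F2 and 129 in F3, against 154, 151 and 152 in the controls. The median distance from the control mean on the log2 scale was 0.52 in F1, 0.21 in F2 and -0.21 in F3, and F3 lay below the controls in 298 (78.2%, against 51.8% of all tested). Among the 763 probe sets higher in F3, it lay below the controls in 466 (61.1%). Over all tested probe sets, both arrays of each generation were in strictly rising order from F1 to F2 to F3 in 973 (4.48%) and in falling order in 789 (3.63%). In the control line the same orders were seen in 399 (1.84%) and 379 (1.74%).

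**Figure D4:**
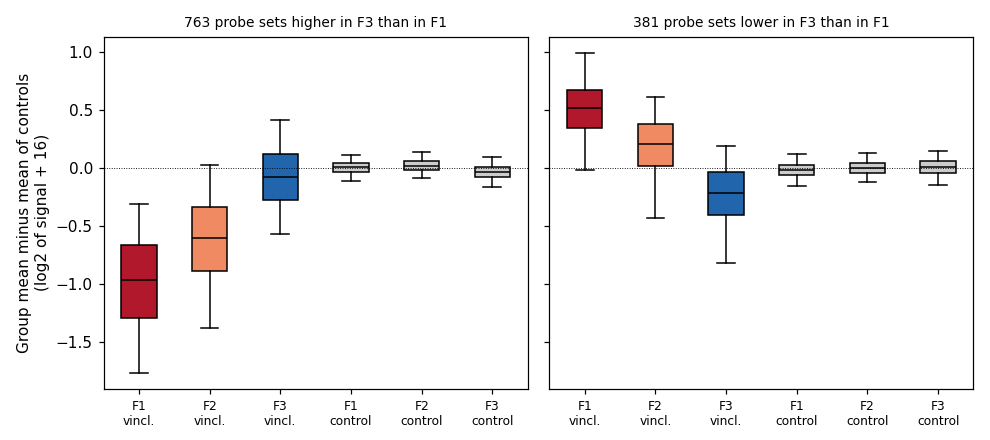
Distance of each group mean from the mean of the 3 control groups, log2 of (signal + 16) (y axis), in the 763 probe sets higher and the 381 lower in F3 than in F1 vinclozolin, by group (x axis). Boxes span the quartiles with a line at the median and whiskers run from the 5th to the 95th percentile. The risen sets move from a median of -0.96 in F1 through -0.60 in F2 to -0.07 in F3, and the fallen sets from 0.52 through 0.21 to -0.21.

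Which probe set of a gene was read mattered to these calls. Among the 11351 probe sets that were the brightest of their gene, 179 were higher in F3 than in F1 (1.58%) and 145 lower (1.28%), an almost even split. Among the 4339 dimmer probe sets of the same genes, 413 were higher (9.52%) and 59 lower (1.36%). The dimmer sets lay a median of -0.22 from the controls in F1 and -0.11 in F3, and the brightest ones 0.05 and 0.01. Taking probe sets of 1 gene in pairs gave 5897 pairs: both were called in 75, in opposite directions in 9 of these (12%), and only 1 in 929.

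From F1 to F2, 3 of the 8 called probe sets had a gene symbol. Rasd2, a Ras-like GTPase, read 241.2 and 287.8 in F1, 698.4 and 797 in F2, and 566.6 and 333.7 in F3. Both F2 arrays stood above all others, the controls at 379.1 to 437.1 included, and the log2 difference of F2 from F1 was 1.45 ± 0.195 (adjusted p = 0.0171), while a dimmer probe set of the gene, 1370373_at, differed by 0.93 (adjusted p = 0.278). Mbp (-1.95, adjusted p = 0.0408) and Hspa4 (-1.27, adjusted p = 0.0195) had already fallen by F2. These 3 calls were lost when either F2 array was left out, at adjusted p-values up to 0.223 for Rasd2 and 0.235 for Mbp and Hspa4.

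The other 5 had no symbol and are named after their values were seen. Among them 1397977_at read 213.2 and 202.5 in F1, 34.9 and 36.4 in F2, and 61.2 and 108 in F3, below the controls in F2 and F3 and above them in F1, with a fall of -2.12 from F1 to F2 (adjusted p = 0.00146). 1380552_at read 44.8 and 28.1, then 137.4 and 111.3, then 326.5 and 298.5, and rose at each step (1.43, adjusted p = 0.0135, and 1.23, adjusted p = 0.0111). The probe sets 1383517_at, 1393649_at and 1394585_at differed between F2 and F1 by -0.93, -1.06 and -1.04.

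From F2 to F3, beside the prostate genes and Nedd4, Fos, Cbfb and Sf3b1 were the largest rises. Fos, an immediate early transcription factor, read 140.8 and 373.7 in F1, 140.9 and 118.8 in F2, and 328.5 and 459.4 in F3. All 6 values were above the controls, at 22.3 to 36.3, and the rise from F2 to F3 was 1.48 ± 0.299 (adjusted p = 0.0453). F1 overlapped both later generations (F3 against F1, adjusted p = 0.201), and the call was lost without either F2 or either F3 array, with adjusted p-values up to 0.496. Cbfb rose by 1.40 (adjusted p = 0.0251) and Sf3b1, a splicing factor, by 1.35 (adjusted p = 0.0137) on 1382691_at, where the 2 brighter probe sets of Sf3b1 differed by 0.30 and 0.11 (adjusted p = 0.429 and 0.784). Leaving out F2 replicate 2 or F3 replicate 1 ended both calls, at adjusted p-values up to 0.447 for Cbfb and 0.28 for Sf3b1.

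Crocc, the rootletin of ciliary roots, showed the largest fall from F2 to F3. It read 40.2 and 31.8 in F1, 70.1 and 69.7 in F2, and 17.7 and 10.4 in F3, so that F2 stood above and F3 below every control array (28.3 to 53.6), and the log2 difference was -1.53 ± 0.211 (adjusted p = 0.00753). The other 9 named falls ran from -1.19 for Srsf11 to -0.78 for Tdrd3, a Tudor domain protein. They were Srsf11, Mfhas1, Retreg3, Espn, an actin bundler, P2ry2, a nucleotide receptor, Trrap, a subunit of histone acetyltransferase complexes, Maz, a zinc finger factor, Inf2, a formin, and Tdrd3, with adjusted p-values from 0.0184 to 0.0484. Each of the 10 lost its call without F2 replicate 2, with Crocc at an adjusted p of 0.11 and Maz at 0.637, and each also without F3 replicate 2. Without F3 replicate 1 all but Crocc were lost, and without F2 replicate 1 P2ry2, Maz, Inf2, Retreg3 and Tdrd3.

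Against the mean of F2 and F3, F1 stood apart for Prss35 and Ttr, which the comparisons above did not name. Prss35, a serine protease-like protein, read 79.1 and 224.3 in F1, 423.2 and 297.5 in F2, and 721.6 and 281.6 in F3, a log2 difference of 1.46 ± 0.336 (adjusted p = 0.041). The controls read 633.6 to 731.1, near only F3 replicate 1, and the call held in 2 of the 6 fits that left out an array. Ttr, transthyretin, read 99.2 and 58.2 in F1, 19.4 and 26.8 in F2, and 19.4 and 37.3 in F3, a difference of -1.17 ± 0.223 (adjusted p = 0.0175). Its F2 and F3 values lay near the controls (13.3 to 38.4), and the call was lost without F1 replicate 1 or F2 replicate 1, with adjusted p-values up to 0.0725.

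Gene lists of the cell types and pathways of the fetal testis were read with 1 probe set per gene, the brightest by its mean over the vinclozolin arrays. The lists and their members were chosen with earlier results of these data known. Shares called in a list, set beside those of all genes, are therefore described without a test. In bulk tissue, fewer cells of a type and less RNA per cell cannot be told apart. Over all 11351 genes so tested the median log2 difference of F3 from F1 was -0.03, with 1.58% of genes called higher and 1.28% lower. Beside the genes already described, 32 list genes called in F3 against F1 are named here. Few of these calls held under every setting: without F3 replicate 1 limma called 2 of the 32, without F3 replicate 2 it called 6, and without F1 replicate 2 it called 13, while 4 were called without the eBayes trend and 6 without the filter on dim probe sets. With the beta-actin ratio in the model 0 of the 32 were called and 16 of the estimates changed sign.

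Germ cell genes stood above that median. Of 34 listed, 12 were tested, and 11 had a higher mean in F3 than in F1 (5083 of all 11351 genes did). Of the 12, 3 were called higher (25%, against 1.58% of all genes) and 1 lower (8.33%, against 1.28%). The median was 0.30, against -0.05 in the control line. Kit, the receptor for stem cell factor, read 20.2 and 2.5 in F1, 26.4 and 33.1 in F2, and 61.4 and 34.5 in F3. F1 lay below F2 and F2 below F3, and the controls, at 61.9 to 80, lay above all 6 (1.27 ± 0.302, adjusted p = 0.0268). Sox2, a pluripotency factor, read 168.4 and 81.1 in F1, 184.4 and 138.1 in F2, and 223.8 and 234.5 in F3 (0.87, adjusted p = 0.048), and Dmrt1, a sex-determination factor also made by Sertoli cells, rose by 0.75 (adjusted p = 0.037). On dimmer probe sets Sox2 differed by -0.39 (1381874_at, adjusted p = 0.556) and 0.39 (1375153_at, adjusted p = 0.468). Sall4, another germ cell transcription factor, went the other way, at 303 and 197.1 in F1, 239.8 and 262 in F2, and 150.1 and 136.3 in F3 (-0.71, adjusted p = 0.0354). Lin28a, at 120.3 to 165, and Tfap2c, at 150.3 to 208.5, were not called. The summed signal of the 12 genes ran from 1184 to 1549 in F1, 1549 to 1593 in F2, 1584 to 1642 in F3 and 1716 to 1794 in the controls.

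Leydig cell genes were mixed. Of 21 tested, 3 were higher in F3 than in F1 (14.3%, against 1.58% of all genes) and 1 lower (4.76%, against 1.28%), with a median of 0.04. Star, which brings cholesterol into mitochondria for steroid synthesis, read 722.2 and 701.1 in F1, 1043.3 and 1011.8 in F2, and 1112.8 and 973.3 in F3. On this probe set, 1368406_at, F1 lay below both descendants, which overlapped, and F2 and F3 lay above the controls (690.5 to 849.6). The rise from F1 to F3 was 0.54 ± 0.12 (adjusted p = 0.0202), and on 1387174_a_at it was 0.65 (adjusted p = 0.0195). The rest of the pattern was not shared by 1387174_a_at, at 267.8 and 337.5 in F1, 322.3 and 333.4 in F2, and 501.9 and 457.6 in F3. There F1 and F2 overlapped below the controls (413 to 501), and F3 lay near them. Lhcgr, the receptor for luteinising hormone, rose by 0.56 (adjusted p = 0.0485) and Hsd17b7, a sterol reductase, by 0.60 (adjusted p = 0.0371), and the growth factor Igf1 fell by 0.57 on its brightest probe set (adjusted p = 0.0318), with differences of 0.24 and 0.19 on the other 2 (adjusted p = 0.55 and 0.47). On its dimmer probe set, 1387233_at, Hsd17b7 differed by 0.28 (adjusted p = 0.39). The enzymes Cyp17a1, Cyp11a1 and Hsd3b1 and the hormone Insl3 differed by 0.01, -0.03, -0.09 and 0.04 between F3 and F1, with adjusted p-values from 0.784 to 0.98.

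In Sertoli cells, 1 of 21 tested genes, Dmrt1, was called higher (4.76%, against 1.58% of all genes), and the median was -0.0015. Amh differed by -0.12 between F3 and F1 (adjusted p = 0.605). Of 21 interstitial genes, Tcf21, Wnt5a and Ogn were higher in F3 (14.3%, against 1.58% of all genes) and Igf1 lower (4.76%, against 1.28%), with a median of 0.01. Wnt5a, a secreted signal, read 75.4 and 57.4 in F1, 100.2 and 87.4 in F2, and 146.9 and 120.9 in F3, in order without overlap and below every control (186.4 to 214.4), a rise of 0.87 ± 0.179 (adjusted p = 0.0135). Tcf21, a mesenchymal transcription factor, rose by 0.57 (adjusted p = 0.0242). Ogn rose by 0.73 on 1376749_at (adjusted p = 0.0113) and by 1.19 on 1383263_at (adjusted p = 0.00493). On 1385248_a_at and 1390450_a_at Ogn differed by 0.29 and 0.03 (adjusted p = 0.396 and 0.958).

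A further list held androgen and steroid receptors and androgen-responsive genes. None of its 13 tested genes was called in F3 against F1, F3 against F2 or F2 against F1, and the median of F3 from F1 was 0.10. At an unadjusted p under 0.05 in limma there were 1, 3 and 1 of them. Scgb1d4, Scgb1d2 and Scgb2a1, which the ventral prostate secretes under androgen and which were called above, were not in this list. The members with the smallest p were Tmprss2, an androgen-responsive protease, at 43.7 and 15.8 in F1 and 6.1 and 15.2 in F3 (adjusted p = 0.181), and Fkbp5, a chaperone of steroid receptors, at 464.4 and 419.6 in F1 and 361.2 and 367.7 in F3 (adjusted p = 0.273).

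Of 21 DNA methylation genes, a list also chosen with earlier results known, 4 were higher in F3 than in F1 (19%, against 1.58% of all genes) and 0 lower, with a median of 0.15. Dnmt3a, a methyltransferase that sets new methylation, read 34.7 and 53.6 in F1, 51.6 and 60.4 in F2, and 122.7 and 71.2 in F3 on 1392678_a_at (0.89 ± 0.233, adjusted p = 0.0416). F1 and F2 overlapped and F3 lay above both, but on 1384804_at Dnmt3a read 60.4 and 67.4 in F1, 56 and 60.5 in F2, and 67.2 and 60.4 in F3 (adjusted p = 0.998). The latter probe set was the brighter on each F1 and F2 array. Only through its F3 signal was 1392678_a_at taken as the brightest, so Dnmt3a counts among the 4 by that choice. Uhrf1, which brings the maintenance enzyme to DNA, read 233.1 and 174.6 in F1, 219.7 and 210.8 in F2, and 345.1 and 312 in F3 (0.66, adjusted p = 0.0266), with the controls at 349.3 to 463.7. Tet1, which oxidises methylcytosine, rose by 0.68 (adjusted p = 0.0267) and Gadd45a, a factor in stress response and demethylation, by 0.73 (adjusted p = 0.0362). No gene of this list was called between F2 and F1 or between F3 and F2. Among 44 histone-modifying and Polycomb genes, 1 was called lower in F3 than in F1 (2.27%, against 1.28% of all genes). This was Kmt2a, a histone methyltransferase (-0.51, adjusted p = 0.0498), which was also lower in F3 than in F2 (-0.68, adjusted p = 0.0484). Of 20 imprinted genes limma called 0 in F3 against F1, where 5 had an unadjusted p under 0.05, with Sgce having the smallest p (0.58, adjusted p = 0.0518).

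Immediate early genes had a median of 0.28 for F3 against F1 and 0.19 for F3 against F2, with 29 and 30 of 36 genes higher. Of all 11351 genes, 5083 and 5122 were higher. In each of these comparisons limma called 1 of the 36, which for F3 against F1 was 2.78%, against 1.58% of all genes called higher. Jun rose from F1 to F3 on 1389528_s_at, from 251.3 and 222.3 to 374.4 and 481.5 (0.80, adjusted p = 0.0111), as it did on 1374404_at (0.68, adjusted p = 0.0499), whereas 1369788_s_at differed by 0.25 (adjusted p = 0.513). On the first of these F2 was at 277.1 and 223.6, and F3 alone exceeded the controls (273 to 343.4). The list took 1389528_s_at as the brightest by a mean that holds F3, while 1369788_s_at read 235.2 and 306.3 in F1 and 274.3 and 244.1 in F2. Egr1 read between 701.1 and 1574.2 on the vinclozolin arrays and at most 466 on the controls, and differed by 0.53 between F3 and F1 (adjusted p = 0.147). Under a pseudocount of 64 the median of F3 against F1 was 0.15.

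In the remaining lists few genes were called in F3 against F1, though most shares lay above those of all genes. Where any was called higher, the share ran from 1.49% in oxidative phosphorylation to 9.52% in cholesterol synthesis, against 1.58% of all genes. Where any was called lower, it ran from 2.33% in translation to 4.08% in matrix genes, against 1.28%. Cholesterol synthesis had a median of 0.19, with Tm7sf2, a sterol reductase, and Hsd17b7 higher of 21. Oxidative phosphorylation had a median of -0.11 with 1 of 67 called, Uqcrfs1, a subunit of complex III, higher by 0.45 (adjusted p = 0.0407). Cytosolic ribosomal proteins had a median of -0.09 with Rpl39 higher of 42, by 1.03 (adjusted p = 0.00886), and collagens, laminins and other matrix genes had a median of -0.10 with Lamb2 (-0.71, adjusted p = 0.0113) and Fbn2 (-0.53, adjusted p = 0.046) lower of 49. Heat shock genes had Hspa4 alone of 26. Of 52 splicing genes Hnrnpf (0.63, adjusted p = 0.0133) and Ddx17 (0.74, adjusted p = 0.0414), which bind RNA, were higher, with a median of 0.05. Of 34 ubiquitin genes Uchl1, a deubiquitinase of neurons and germ cells, was higher (0.56, adjusted p = 0.0295) and Usp7, which removes ubiquitin from p53 and its ligase, lower. Usp7 read 659.4 and 726.1 in F1, 529.1 and 464.8 in F2, and 385 and 390.5 in F3, in order without overlap and from above to below the controls, at 557.6 to 610.7 (-0.81, adjusted p = 0.00305). The other 2 probe sets of Usp7 differed by -0.41 and -0.12 (adjusted p = 0.141 and 0.675). Of 43 translation genes Eprs1, a tRNA synthetase, was lower on its brightest probe set, 1383455_at (-0.61, adjusted p = 0.0412). On 1382040_at it rose instead, from 16.5 and 20.1 in F1 to 95.8 and 89.6 in F3 (1.67, adjusted p = 0.000856), and on 1373418_at it differed by -0.09 (adjusted p = 0.772). Of 44 cell cycle genes Rb1, the retinoblastoma protein, was higher (0.84, adjusted p = 0.0263), and of 29 glycolysis and hypoxia genes Eno2 was lower. Between F2 and F3, Ptn, a growth factor of the stroma, was higher in F3 (0.85, adjusted p = 0.0284) and Snrnp70, of the U1 particle, lower (-0.68, adjusted p = 0.0359), and neither was called in F3 against F1.

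Few genes of other cell types that the dissection could hold were called, but in short lists 1 gene is a large share. Called higher in F3 than in F1 were 3.85% of erythroid, 6.67% of mesonephric and Wolffian and 7.69% of smooth muscle genes, against 1.58% of all genes. Called lower were 7.69% of striated muscle genes, against 1.28% of all genes. Of 26 erythroid genes, Slc4a1, the red cell anion exchanger, was higher in F3 than in F1 (0.73, adjusted p = 0.0267), and Hba-a3, an alpha globin, in F3 than in F2 (1.01, adjusted p = 0.0204). Of 15 genes of mesonephric and Wolffian epithelium, Cdh1, E-cadherin, was higher, at 161.8 and 95 in F1, 221.9 and 236.4 in F2, and 270.8 and 240.9 in F3 (0.95, adjusted p = 0.0122). Of 13 smooth muscle genes, Myocd, a smooth muscle coactivator, was higher (0.92, adjusted p = 0.0117), at 54.2 to 57.9 in F1, 46.3 to 61 in F2 and 108 to 133.8 in F3, where F3 alone reached the controls (112.9 to 135.5). Of 13 striated muscle genes Myh1 was lower (-0.44, adjusted p = 0.0422) on its brightest probe set. On 1377114_at, 1377719_a_at, 1377720_x_at and 1383161_a_at Myh1 differed by 0.03, -0.17, -0.13 and -0.25, with adjusted p-values from 0.292 to 0.929. Of the endothelial, macrophage, adrenal and ovary lists, with 22, 20, 5 and 7 genes tested, limma called 0 in F3 against F1, where 0 had an unadjusted p under 0.05.

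**Figure D5:**
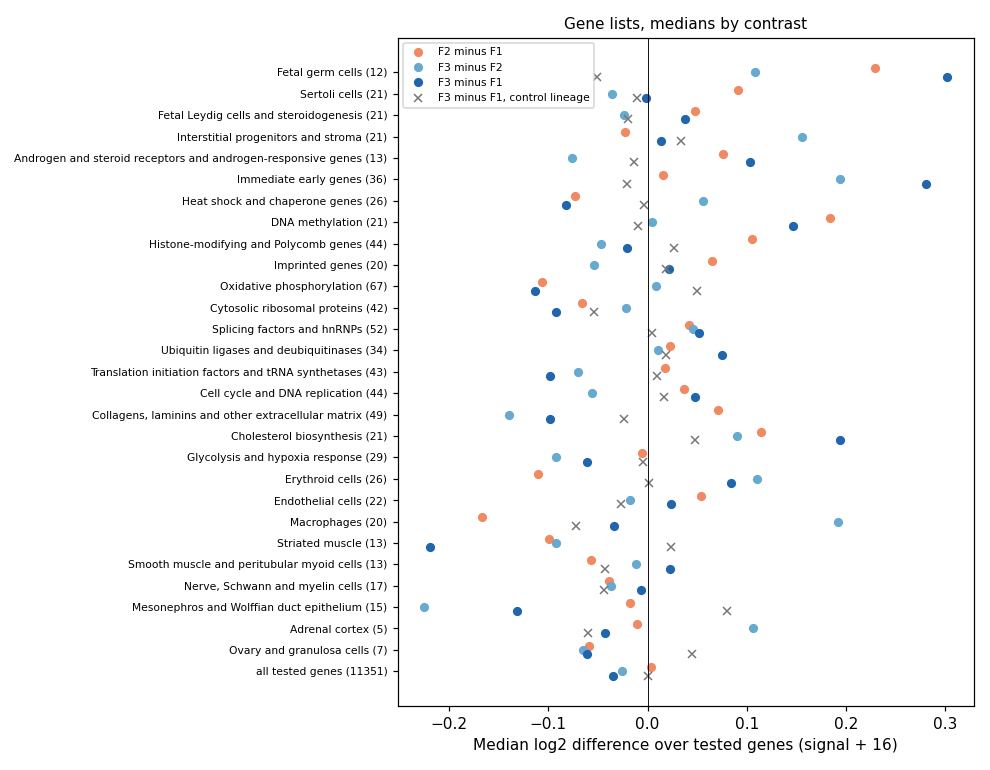
Median log2 difference of signal + 16 (x axis) over the tested genes of each list (y axis, number tested in brackets), for F2 minus F1, F3 minus F2 and F3 minus F1 in the vinclozolin line (points) and F3 minus F1 in the control line (crosses). Fetal germ cell genes have a median of 0.30 and immediate early genes 0.28 for F3 minus F1, against -0.03 over all tested genes; the list of prostate secretory genes is left out.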

How the data were processed

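Rat testis RNA of embryonic day 16 was read on 12 Affymetrix arrays. The deposited values are linear intensity per probe set, scaled by the authors to a common trimmed mean as the values show; the software that summarised them is not given in the sources used here. Tests covered 21729 of 31099 probe sets, after removal of 57 array controls and the 9313 dimmest (lowest 30% by mean over the vinclozolin arrays, a signal under 14.6). The log2(intensity + 16) values, on which changes of dim genes are understated, were fitted with limma 3.58.1 in R 4.3.3 (1 mean per generation over the 6 vinclozolin arrays, eBayes with trend, Benjamini-Hochberg adjustment), with 3 residual and 11.1 prior degrees of freedom. The script was tested on simulated data. Platform annotation gave 20837 probe sets 1 symbol, 425 several and 9780 none. Named genes were up to 10 rises and 10 falls per pair of generations (5 for the mean of F2 and F3), 5 by F test, with 1 symbol, an adjusted p under 0.05, no overlap and a signal of at least 50 in the higher group, 1 probe set each, and up to 4 called members per list, or else the 2 with the smallest p. The members and the 29 lists were chosen with earlier results of these data known. Promoters come from RefSeq on GRCr8. Alternatives were the pseudocount, the dim filter, normalization, all 12 arrays, the replicate number, the trend, the beta-actin ratio and each array left out. Same-numbered arrays of different generations had deviation correlations of -0.09, 0.03 and 0.07, so the numbers did not pair the arrays. With 2 arrays a group, their number limits the precision.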

Additional observations from a re-analysis of the deposited data

Results flagged for a closer look

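Generation differences that differed between the vinclozolin and control lines were tested in a limma fit of all 12 arrays, as the difference of the 2 differences. At an adjusted p under 0.05 this held for 7 probe sets in F2 minus F1, 112 in F3 minus F2 and 961 in F3 minus F1. The genes below were named on the vinclozolin difference, which this test contains. Among the genes named for F3 minus F1, the vinclozolin difference exceeded that of the controls by 3.67 on the log2 scale for Scgb1d4, 3.02 for Scgb1d2 and 2.74 for Scgb2a1. It exceeded it by 2.22 for Nedd4, 2.05 for Gmps, 1.95 for Scd2, 1.88 for Cbfb and 1.75 for Ddx3x. It was lower than that of the controls, at -1.99 for Mbp, -1.76 for Hspa4, -1.40 for Sox4, -1.36 for Nufip2, -1.31 for Eno2, -1.29 for Retreg3, -1.21 for Srsf11 and -1.20 for Mfhas1. Among the list genes it exceeded that of the controls by 1.52 for Kit, 1.00 for Myocd, 0.97 for Jun, 0.96 for Dmrt1, 0.86 for Wnt5a, 0.75 for Uhrf1, 0.72 for Star, 0.65 for Tet1, 0.64 for Ogn, 0.64 for Uchl1, 0.59 for Hnrnpf, 0.56 for Tcf21 and 0.49 for Uqcrfs1. It was lower, at -0.84 for Usp7, -0.80 for Lamb2 and -0.53 for Myh1. The other 16 of the 32 list genes missed the threshold: Sox2, Sall4, Lhcgr, Hsd17b7, Igf1, Dnmt3a, Gadd45a, Kmt2a, Rpl39, Ddx17, Eprs1, Rb1, Fbn2, Tm7sf2, Slc4a1 and Cdh1, with adjusted p-values from 0.0548 to 0.674. Tiparp, at -1.18, missed the threshold (adjusted p = 0.0804), and Sbp, Scgb1d2-ps1 and Snap25 were too dim over all 12 arrays to enter that fit.

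The 5S ribosomal RNA control probe set, which enters no comparison above, read 307.8 and 583.6 in F1, 276.8 and 332.3 in F2, and 167.5 and 189.1 in F3 vinclozolin. The values of 307.8, 583.6 and 332.3 lie above every control array (253.7 to 300.7), and both F3 arrays lie below them. The difference among the generations had p = 0.133 in an exact permutation test over 15 splits (0.166 adjusted over 5 measures).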

How the results depend on the processing

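With the beta-actin ratio as a covariate, which the generation nearly fixes, 0 probe sets were called in each pair of generations, in the mean of F2 and F3 minus F1, and in the difference between lines (1100 at an unadjusted p under 0.05 for F3 minus F1), and 1 by the F test. Values that changed sign there were -0.0552 for Cbfb and 0.68 for Srsf11 (F3 minus F2), -0.61 for Gmps, -0.22 for Cbfb, -1.59 for Scd2, -0.58 for Ddx3x, 1.40 for Srsf11, 0.94 for Sox4, 0.73 for Nufip2, 0.48 for Tiparp, -1.82 for Kit, -1.71 for Sox2, -0.29 for Dmrt1, -0.48 for Lhcgr, 0.72 for Igf1, -0.60 for Wnt5a, -0.58 for Uhrf1, -0.50 for Gadd45a, -0.24 for Uqcrfs1, -0.13 for Hnrnpf, -1.36 for Ddx17, -0.42 for Uchl1, 0.62 for Eprs1, -1.22 for Rb1, 0.0065 for Myh1 and -0.79 for Cdh1 (F3 minus F1), and -0.14 for Gmps, -0.84 for Scd2 and 0.13 for Nufip2 (mean of F2 and F3 minus F1); the fit has 2 residual degrees of freedom. The counts below are in the order F2 minus F1, F3 minus F2, F3 minus F1, mean of F2 and F3 minus F1, F test. With no filter on dim probe sets they were 0, 10, 421, 42 and 93, and the difference between lines 625. Without the trend they were 0, 26, 516, 36 and 135, and 559. For these F2 minus F1 counts of 0, limma gave 2431 and 1870 probe sets at an unadjusted p under 0.05. With all 12 arrays sharing 1 spread they were 153, 1091, 2831, 1772 and 2561. A pseudocount of 1 gave 5 and 75 in the first and the second. With 1 probe set per gene, an alternative added after seeing the data, 11351 were tested and 3, 34, 157, 53 and 106 called. Leaving out 1 vinclozolin array gave 0 to 1469, 9 to 784, 185 to 3004, 66 to 2659 and 102 to 3182, and 360 to 3420 for the difference between lines; the lone array is then assumed to vary like the others. In the control line the unfiltered limma fit called 0 in F3 minus F2 and in the F test (2133 and 2393 at an unadjusted p under 0.05), and leaving out 1 control array gave 0 to 2, 0 to 4, 0 to 4, 0 to 5 and 0 to 6. With the replicate number as a block the counts were 8, 130, 1117, 424 and 620, and 1016 for the difference between lines. Quantile normalization, median centring, a pseudocount of 64 and a 50% filter kept every such count within 1.5 times. The causes of these shifts were not tested. Of the 1144 calls of F3 minus F1, 1106 were called with the same sign after quantile normalization and 176 without F3 replicate 1, and all that could be tested kept their sign outside the covariate fit. Of 85 named differences, 34 kept their call without the dim filter, 36 without the trend, 34 of 81 without F3 replicate 1 and 78 after quantile normalization. Of 464 list medians under alternatives, 48 moved, 26 of them with the covariate.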
